A study of Drosophila melanogaster with 8 samples.

Results

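The Nimrod genes of the fly encode a family of phagocytosis proteins, and 10 of them were followed here across 2 laboratory strains: NimB1, NimB2, NimB3, NimB4, NimB5, NimC1, NimC2, NimC3, NimC4 and eater. They were found by symbol, through the FlyBase gene ID that each row of the deposited comparison carries. Each of the 10 stood on 1 row of the 14701 gene IDs in the table, and each had a p-value. RNA came from heads and thoraxes, with abdomens left out, of mated Drosophila melanogaster females aged 10 days and raised at 25 °C. The strains were Dahomey and Oregon R, for which the labels give no genotype or treatment beyond the strain name, with 4 libraries per strain and 60 flies pooled in each library. The question was which transcripts differed in abundance between the strains.

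Nimrod proteins carry NIM repeats, short cysteine-rich modules related to the EGF repeat. In Drosophila the NimC proteins and Eater are mostly receptors on the surface of plasmatocytes, the macrophage-like blood cells, while the NimB proteins lack a membrane anchor and are secreted. Plasmatocytes use such receptors to bind and engulf bacteria and the corpses of apoptotic cells, and adult flies carry them in the head and thorax as well as in the abdomen. In RNA from whole tissue, fewer cells of a type and less RNA per cell cannot be told apart.

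The values are those of the authors' own DESeq2 comparison: for each row a mean normalized read count over all libraries, the log2 fold change between strains, a standard error (SE) of that change and an adjusted p. Values of single libraries were not used here, so the error given is the authors' SE, the depth of each library is unknown, and overlap between the libraries of the strains could not be looked at. The submitters stated 90000000 reads per library. Positive fold changes were taken to mean more transcript in Dahomey because its name comes first in the name of the comparison; no header states the sign, so the directions below share that assumption. A gene passed when the authors' adjusted p was under 0.05. In all, 29.4% of the 13395 tested rows passed; 14.7% of the tested rows were higher and 14.7% were lower in Dahomey.

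All members were present in this tissue, at levels that spanned a wide range. Levels of different genes are compared here as the deposited mean normalized count per kb of exon, over both strains together. On that scale NimB2 was the most abundant member, at 13354, followed by NimC3 at 8252. Together they made up most of the family's summed level, NimB2 45.8% and NimC3 28.3% of it. The level of NimC3 is uncertain, because an antisense RNA covers 95.5% of its exon bases. The other secreted members formed a narrow band, with NimB5 at 1724, NimB1 at 1415, NimB3 at 1351 and NimB4 at 1223 mean normalized counts per kb. These levels were close to those of the plasmatocyte genes Hml, which encodes the clotting protein hemolectin (1411 per kb), srp, the GATA factor of blood cell fate (1666 per kb), and Pxn, which encodes peroxidasin (1123 per kb). Across the 13 plasmatocyte markers listed here, levels ran from 170.5 per kb for He to 12502 per kb for Glt. The remaining receptors were scarcer than the secreted members. NimC1, the plasmatocyte antigen P1, stood at 799.6 per kb, eater at 475.6, NimC2 at 398.0 and NimC4 at 176.1. The table gives no error for a mean, so the order of neighbouring levels within the band was not tested.

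**Figure D1:**
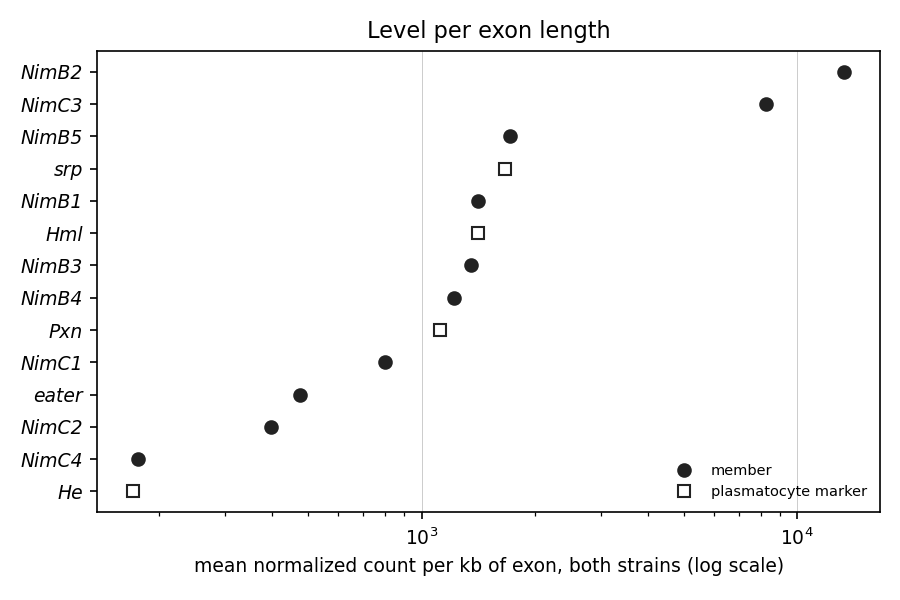
Deposited mean normalized count per kb of exon (x axis, log scale, both strains together) for the 10 members (filled circles) and 4 plasmatocyte genes (open squares), 1 gene per line. NimB2 (13354) and NimC3 (8252) stand far above the other members, and NimC4 (176.1) is the scarcest member.

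The family split by subfamily in its difference between strains. Of the 5 NimB genes, Dahomey had more of 3 and less of 0, and 2 did not pass. Of the 4 NimC genes, Dahomey had less of 3 and more of 0, and 1 did not pass; eater, which belongs to neither group by name, did not pass. Over all 10 members 3 were higher and 3 were lower, against 14.7% of all tested rows in each direction. The median log2 fold change in the authors' deposited table was 0.35 for the NimB genes and -0.64 for the NimC genes, beside -0.01 for all tested rows. The difference between the subfamilies was not tested as such.

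Among the secreted members, NimB3 had the largest change. The authors' deposited table listed NimB3 (FBgn0054003, arm 2L) with a mean of 629.8 normalized counts and with 1.76-fold more transcript in Dahomey, a log2 change of 0.82 ± 0.14 (SE) with an adjusted p of 2.81e-08. NimB3 is the shortest member, with 466 bases of annotated exon. NimB2 (FBgn0028543, arm 2L), the most abundant member, was 1.35-fold higher in the authors' deposited table (0.44 ± 0.11 on the log2 scale, adjusted p = 3.37e-04, mean 19163). NimB4 (FBgn0028542, arm 2L), whose secreted protein binds apoptotic corpses and promotes their clearance, was 1.28-fold higher in the authors' deposited table (log2 fold change 0.35 ± 0.11, adjusted p = 0.0049, mean 1807). These 3 genes lie side by side and are read from the minus strand. The genes that flank them, NimB1 and NimB5, are read from the plus strand and did not pass. For NimB1 (FBgn0027929, arm 2L) the authors' deposited table gave 0.12 ± 0.12 on the log2 scale, a 95% interval from -0.13 to 0.36 and an adjusted p of 0.576. NimB5 (FBgn0028936, arm 2L), a factor that the larval fat body secretes and that limits blood cell number and adhesion, had -0.08 ± 0.12 in the authors' deposited table, with an interval from -0.32 to 0.16 (adjusted p = 0.726).

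Among the receptors, the scarcest had the largest change. NimC4 (FBgn0260011, arm 2L), also called simu, is a receptor for apoptotic cells on macrophages and glia. The authors' deposited table listed it with a mean of 225.8 normalized counts and 1.99-fold less transcript in Dahomey, a log2 change of -0.99 ± 0.18 with an adjusted p of 3.77e-07. Of all tested rows 5.26% had an absolute fold change at least as large. NimC2 (FBgn0028939, arm 2L) was 1.78-fold lower in the authors' deposited table (-0.83 ± 0.15 on the log2 scale, adjusted p = 3.82e-07, mean 1122). NimC3 (FBgn0001967, arm 2L), the most abundant NimC gene, was 1.37-fold lower in the authors' deposited table, with -0.45 ± 0.15 and an adjusted p of 0.00984. Its 95% interval ran from -0.74 to -0.16.

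The best known bacterial receptors of the family did not pass. NimC1 (FBgn0259896, arm 2L), which takes part in the uptake of bacteria, had a log2 change of -0.33 ± 0.15 in the authors' deposited table, with an unadjusted p of 0.0286 and an adjusted p of 0.0869. The gene eater (FBgn0243514, arm 3R), whose product binds bacteria and serves in the adhesion of larval blood cells, had -0.23 ± 0.12 there, with an adjusted p of 0.147 in the authors' deposited table. Their 95% intervals ran from -0.62 to -0.03 and from -0.47 to 0.005, so changes of the size seen for NimC3 lie within both. With a change of at least 1.5-fold also required, which 10.1% of tested rows met, 3 members remained: NimB3 higher, and NimC2 and NimC4 lower.

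**Figure D2:**
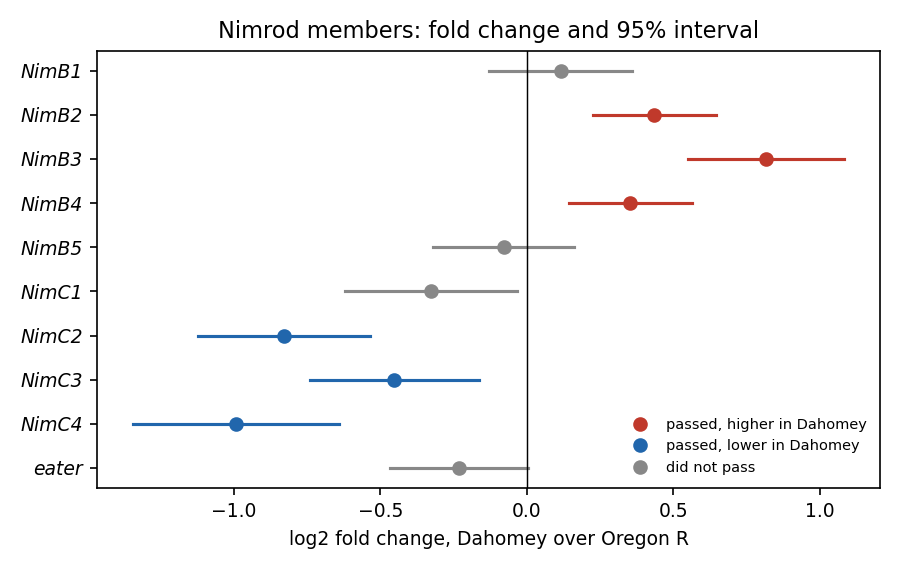
Log2 fold change of each member, Dahomey over Oregon R (x axis), with points for the authors' estimate and bars for the 95% interval from the authors' SE. The 3 red genes, all NimB, lie between 0.35 and 0.82, and the 3 blue genes, all NimC, lie between -0.99 and -0.45; grey genes did not pass.

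On arm 2L, subfamily and position divide the members in the same way, so they cannot be told apart here. The 9 members on arm 2L lie in 1 cluster, in the order NimB1 to NimB5 and then NimC1 to NimC4, with NimA, another family gene, just outside NimB1; eater lies apart on arm 3R. Between NimB1 and NimC4 there are 6 other tested genes. He, which encodes a surface glycoprotein of blood cells, sits between NimB5 and NimC1 and was more abundant in Dahomey in the authors' deposited table (log2 fold change 0.73 ± 0.29, adjusted p = 0.0391, mean 114.7). The other 5 lie among the NimC genes. The authors' deposited table gave Cyp28a5, a cytochrome P450 gene between NimC1 and NimC2, a log2 change of -1.61 ± 0.081 (adjusted p = 1.81e-85). Next to NimC2, rk, the receptor gene for the hormone bursicon, had -1.15 ± 0.11 in the authors' deposited table (adjusted p = 5.20e-24). For CG18095 the value in the authors' deposited table was -1.35 ± 0.19, and for the nicotinic acetylcholine receptor gene nAChRalpha5 it was -0.74 ± 0.13. The last, the acyl-CoA synthetase gene bgm, did not pass, at -0.38 ± 0.16 in the authors' deposited table (adjusted p = 0.0604).

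From NimC1 to NimC4 all 9 tested genes thus had a fold change below 0, of which 7 passed, and their median log2 fold change was -0.83. Annotated genes of this stretch that had no row under their gene ID, among them hll and CG42692, are not covered. From NimB1 to He 4 of 6 tested genes were higher and 0 were lower, with a median of 0.39. Of all tested rows, 14.7% were higher and 14.7% were lower. This border was drawn after the values were seen, so the stretches were not tested against each other. The genes beyond the cluster showed no such run. Of the 5 tested genes before NimB1, 1 was higher and 0 were lower, and NimA had -0.21 ± 0.34 from a mean of 33.5 in the authors' deposited table. In the authors' deposited table the gene that passed, Vajk3, had 0.44 ± 0.15. Of the 5 tested genes after NimC4, 1 was higher and 0 were lower, with CG15293 at 0.44 ± 0.14 in the authors' deposited table; CG43332 and CG43333 among these 5 hold identical values and are not separate measurements. Around eater, 4 of 10 tested neighbours were lower and 0 were higher, beside 14.7% of all tested rows in each direction. Cpr97Eb, a cuticle protein gene, had -1.23 ± 0.13 and CG5815 had -0.51 ± 0.068 in the authors' deposited table. Whether the position of the NimC genes among lower neighbours has a part in their values was not tested.

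**Figure D3:**
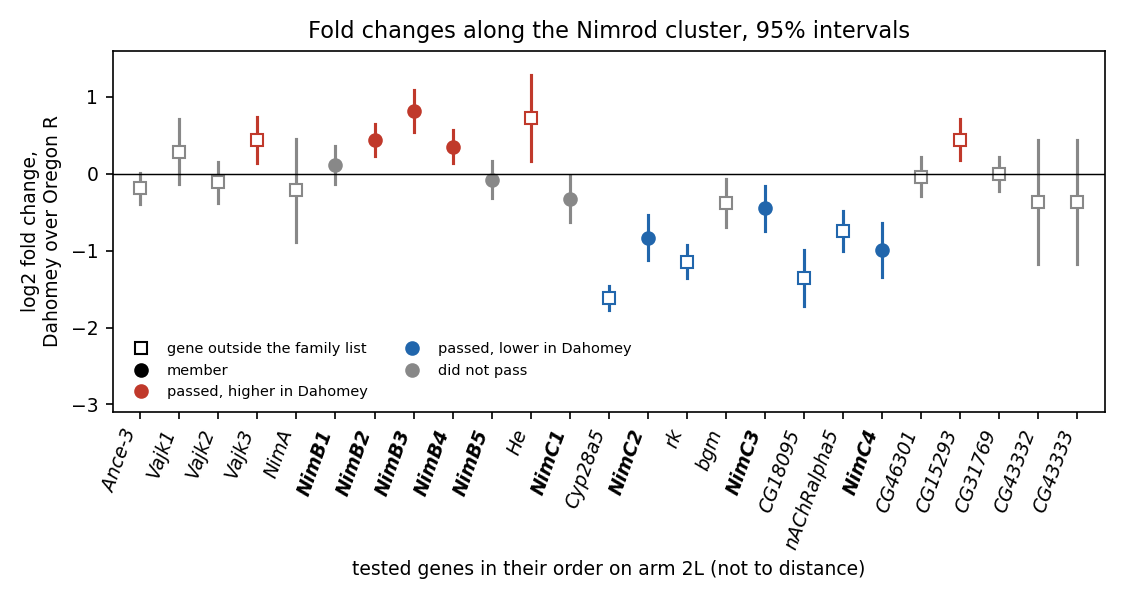
Log2 fold change, Dahomey over Oregon R (y axis), of tested genes in their order along arm 2L (x axis, not to distance), with 95% intervals from the authors' SE; filled circles are members and open squares are other genes. All 9 genes from NimC1 to NimC4 lie below 0, whereas NimB2, NimB3, NimB4 and He lie above it.

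Several members share transcribed bases with another gene, and no source used here says how the authors' counting treated strand or shared reads. In the BDGP6 annotation, looked up by gene ID, NimB1 and NimB2 end in each other on opposite strands and share 77 exon bases, which is 5.97% of NimB1 and 5.37% of NimB2. NimB5 and He share 78 bases on opposite strands, out of 673 exon bases in He. NimB5 stood at 1724 per kb and He at 170.5. NimC2 shares 18.7% of its exon bases with rk on the opposite strand, and rk was itself lower. NimC3 is covered over 95.5% of its exon bases by an antisense RNA with no row in the table. NimC4 lies inside the gene nAChRalpha5, on the same strand, with 0 exon bases in common. nAChRalpha5 had a mean of 2052, against 225.8 for NimC4, and was itself lower. Values of members with such a partner, and the value and higher call of He, are therefore uncertain, by an amount that the share of bases does not give. The 5 members with no shared exon bases were NimB3, NimB4, NimC1, NimC4 and eater, and of these NimB3 and NimB4 were higher and NimC4 was lower.

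The fold changes of the members were measured less precisely than those of most genes at the same level. For each member the SE was divided by the median SE of the 200 tested rows nearest to it in mean. The ratio was above 1 for 10 of 10 members, against 49.2% of all tested rows, and ran from 1.04 for NimC4 to 1.93 for NimC3, with NimC1 at 1.86. The median over the members was 1.40, a ratio that 9.38% of all tested rows reached. Several other lists had raised ratios too, but not all. The ratio was above 1 for 10 of 13 plasmatocyte markers (median 1.29), 3 of 3 crystal cell markers (1.63), 5 of 6 tested fat body markers (1.32), 7 of 7 glia markers (1.23) and 5 of 6 other tested genes inside the cluster (1.40). Other phagocytic receptors had 9 of 11 above 1 (1.11), nephrocyte genes 4 of 6 (1.10), thioester genes 3 of 5 (1.06) and lamellocyte genes 2 of 4 (1.12). Only 4 of 14 engulfment genes (0.83) and 1 of 4 tested muscle genes (0.90) were above 1. In a test of this kind the SE at a given mean grows with the spread between libraries of a strain.

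**Figure D4:**
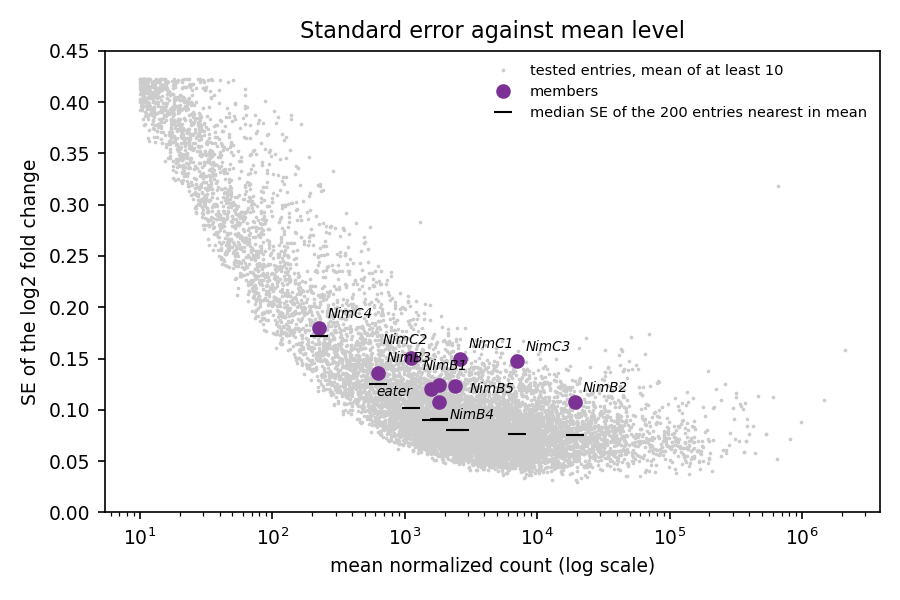
SE of the log2 fold change (y axis) against mean normalized count (x axis, log scale); grey points are tested rows with a mean of at least 10, purple points are the members, and black dashes mark the median SE of the 200 rows nearest in mean to each member. All 10 members lie above their dash, NimC3 (ratio 1.93) and NimC1 (1.86) the furthest in proportion.

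Genes listed as plasmatocyte markers differed in both directions, and whether other cells in this tissue also express them was not tested. The 13 marker genes comprised 4 higher in Dahomey, 2 lower and 7 that did not pass, with a median log2 fold change of -0.004. Of all tested rows, 14.7% were higher and 14.7% were lower. Hml did not pass, at -0.04 ± 0.12 in the authors' deposited table (95% interval -0.28 to 0.20), from a mean of 16586. The markers srp and Pxn went opposite ways in the authors' deposited table, srp at 0.34 ± 0.10 (adjusted p = 0.00368) and Pxn at -0.31 ± 0.086 (adjusted p = 0.00149). Glt, which encodes the matrix protein glutactin, was higher, at 0.45 ± 0.091, and Ppn, for papilin, also of the matrix, had -0.004 ± 0.11 in the authors' deposited table. None of the 13 markers had a mean count of 0, the lowest mean being that of He at 114.7. The part of blood cell number in the members' values was not tested.

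Other phagocytic receptors that passed were mostly lower in Dahomey. Of 11 tested genes 5 were lower, 1 was higher and 5 did not pass, with a median of -0.21. Of all tested rows, 14.7% were lower and 14.7% were higher. The scavenger receptor gene Sr-CIV had the largest change in this list, at -1.46 ± 0.31 in the authors' deposited table from a mean of only 56.2. The changes of the abundant genes were small: pes, a CD36-family receptor gene, had -0.29 ± 0.066, drpr, the engulfment receptor that Simu works with, had -0.20 ± 0.076, and the CD36-family gene crq, which is also in the plasmatocyte list, had -0.18 ± 0.057 in the authors' deposited table. Itgbn, an integrin subunit gene, was the higher one, at 0.28 ± 0.11 (adjusted p = 0.0486) in the authors' deposited table. Thioester proteins, several of which tag microbes for uptake, gave 1 higher and 1 lower of 5, Mcr at 0.17 ± 0.049 and Tep4 at -0.14 ± 0.055 in the authors' deposited table, and the most abundant, Tep2, did not pass at 0.25 ± 0.10 (adjusted p = 0.0552). The machinery inside the cell that carries out engulfment gave few calls beside the 29.4% of all tested rows that passed. Of its 14 tested genes 1 was higher, 0 were lower and 13 did not pass. The higher gene was Rab14, of phagosome maturation, at 0.27 ± 0.086 in the authors' deposited table. There Ced-6, the adaptor of Draper, had -0.05 ± 0.083 and Rab7, of late endosomes, had -0.04 ± 0.084.

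Lists of markers for other cell types are small, and whether each cell type was present in this tissue was not tested. Their counts are to be read against the 29.4% of all tested rows that passed, which the shares for crystal cells and lamellocytes lay near. Of 3 crystal cell genes, which mark the melanizing blood cells, 1 was lower, the transcription factor gene lz at -0.78 ± 0.12, while PPO1 and PPO2 did not pass at 0.20 ± 0.12 and -0.12 ± 0.12, in the authors' deposited table. Of 4 lamellocyte genes 1 was lower, PPO3 at -1.21 ± 0.21 in the authors' deposited table; the abundant cher and atilla did not pass, at 0.09 ± 0.062 and -0.11 ± 0.095 there. Of 6 tested fat body genes 4 were higher and 0 were lower, among them Ilp6 at 1.46 ± 0.10, FASN1 at 0.41 ± 0.10 and Yp1 at 0.52 ± 0.16 in the authors' deposited table. The list is not uniform: 4 further genes had values without a p-value, and in the authors' deposited table these were Lsp2 at -1.91 ± 0.39, fit at -0.46 ± 0.34, Yp3 at -0.16 ± 0.15 and Yp2 at 0.38 ± 0.19. No source used here says why these 4 lack one, and their estimates are uncertain. Their SE was 5.25 (Lsp2), 4.51 (fit), 2.11 (Yp3) and 2.72 (Yp2) times the median SE of rows nearest in mean. Nephrocyte genes, of the filtering cells that take up waste from the hemolymph, gave 3 lower and 0 higher of 6: the endocytic receptor genes Cubn at -0.61 ± 0.061 and Amnionless at -1.09 ± 0.20 passed in the authors' deposited table, and sns, at -0.09 ± 0.096, did not. Glia, which also express NimC4, gave 1 higher and 2 lower of 7, with wrapper at 0.60 ± 0.12, alrm at -0.53 ± 0.095, Eaat1 at -0.28 ± 0.083 and Gs2, which did not pass, at -0.04 ± 0.089 in the authors' deposited table. Muscle genes gave 2 higher and 1 lower of 4 tested, with up at 0.26 ± 0.048, Mhc at 0.16 ± 0.061 and fln at -0.50 ± 0.083 in the authors' deposited table. The fifth gene of the list, Act88F, had no p-value and the largest change, at 1.25 ± 0.16 in the authors' deposited table. Its SE was 2.20 times the median SE of rows nearest in mean, so this estimate is uncertain too. What part these cell types have in the members' values was not tested.

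**Figure D5:**
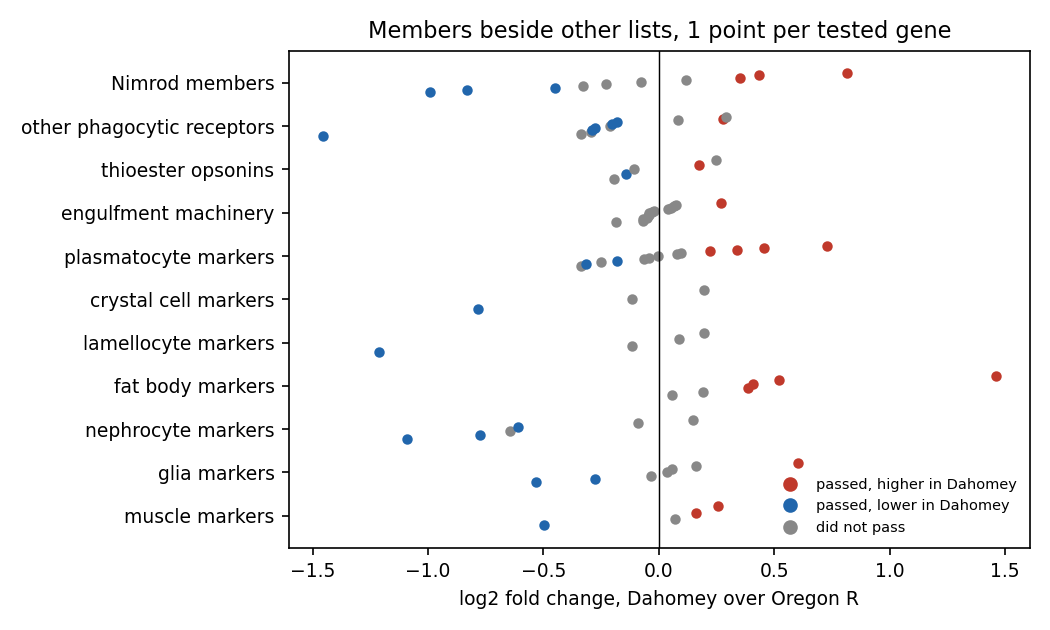
Log2 fold change, Dahomey over Oregon R (x axis), for the tested genes of each list (1 point per gene, spread vertically only to be seen); red and blue points passed the authors' adjusted p under 0.05 and grey points did not. The members reach 0.82 on the side of Dahomey and -0.99 on the side of Oregon R, while the 13 plasmatocyte markers have a median of -0.004 and all but 1 of the 14 engulfment genes are grey.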

How the data were processed

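Poly(A) RNA libraries gave paired reads on a HiSeq instrument, per the labels; all RNA was prepared at the same time. TopHat2 2.0.7, DESeq2, bcl2fastq and FastQC are named with build BDGP5 in the submitters' processing notes. No source used here gives the counting program or annotation.

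The authors deposited 1 finished comparison. The deposited mean is a signal in normalized counts, judging by the column's name and values. The log2 fold change, its SE, the p-value and the adjusted p-value are also the authors' own, as deposited. Dividing fold change by SE gave back the deposited p as a 2-sided Wald p, with differences of at most 4.1e-15. SE was at most 0.423 even at low means, so fold changes may be shrunken toward 0. A test of counts had been foreseen and gave way to the authors' Wald test across all genes. The labels do not say whether the libraries of a strain were independent cultures; the p-values reflect the spread among these libraries alone, which may be technical.

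Of 14944 rows, 13395 had a p-value, 916 had a fold change without one and 633 had a mean of 0. Each gene ID kept its row of highest mean, and 14367 of 14701 IDs matched a symbol. Exon lengths, strands, shared bases and gene order came from the BDGP6 annotation by gene ID; because the builds differ, no coordinates are given. Intervals are 95% normal intervals from the authors' SE. Symbols of the lists that matched no row were scb and Undertaker. The members and lists were chosen with earlier results of these data known. Named genes were all members, Hml, Pxn and srp; in each other list up to 2 genes of smallest p in each direction that passed and the 2 of highest mean; all genes that passed inside the cluster; and up to 2 of smallest p in each direction beside each locus. bgm, NimA, the fat body and muscle genes without a p-value, He in the level plot and the pair with identical values were named after their values were seen. Promoter motifs and protein features were not analysed here. Alternatives were other thresholds, other sets of rows for Benjamini-Hochberg adjustment, median centring and a minimum fold. The adjustment was tested on simulated data. Python 3.11.15, numpy 2.4.6, pandas 2.3.3, scipy 1.17.1 and matplotlib 3.10.9 were used.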

Additional observations from a re-analysis of the deposited data

How the results depend on the processing

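No paired analysis was possible because the table holds no value per library, and for the same reason no library could be left out in turn. The calls and directions of the 10 members were the same with adjusted p under 0.01, with adjustment over 1 row per gene ID, over rows with a mean of at least 10 or of at least 100, over every row with an SE, and with fold changes centred on the median (a shift of 0.01 upward). With adjusted p under 0.1, NimC1 also passed (0.0869). With a change of at least 1.5-fold required, 3 members passed, 1 of them higher, and NimB2 (adjusted p = 3.37e-04), NimB4 (0.0049) and NimC3 (0.00984) no longer did. With only members that share no exon bases, an alternative chosen after seeing the data, 3 of 5 passed, 1 of them lower. Small counts of the other lists moved by over 1.5 times: at adjusted p under 0.01, 3 receptors passed in place of 6, 1 thioester gene in place of 2, 1 higher muscle gene in place of 2 and 0 higher genes among the other cluster genes in place of 1; over rows with a mean of at least 10, over rows with a mean of at least 100 or at adjusted p under 0.1, 2 engulfment genes in place of 1 and 2 higher thioester genes in place of 1; centred on the median, 2 higher thioester genes and 0 lower; at adjusted p under 0.1, 4 lower plasmatocyte genes in place of 2; over every row with an SE, 1 lower fat body gene in place of 0. At least 1.5-fold, 1 receptor, 1 plasmatocyte, 1 fat body and 1 glia gene passed and 0 thioester, engulfment or muscle genes. Depth per library is unknown, which limits what can be said of NimC4, the member with the lowest mean.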
